A study of Mus musculus with 9 samples.

Results

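Gfap and 9 other genes that mark astrocytes, namely Aldh1l1, Slc1a2, Slc1a3, Aqp4, Gja1, Acsbg1, Aldoc, S100b and Vim, were followed across 3 pools of laser-captured mouse motor neurons. The members were all probe sets whose platform annotation names 1 of these symbols and no other gene, which gave 33 of the 45037 probe sets that are not controls. They stand for 10 of 18193 genes. The study compared motor pools that differ in how they fare in amyotrophic lateral sclerosis. The 3 pools were motor neurons cut from sections of the L5 level of the spinal cord (L5), of the dorsolateral nucleus at the L6 level (DL) and of the oculomotor nucleus in the midbrain (OMN), with 3 Affymetrix Mouse Genome 430 2.0 arrays each. All came from untreated wild-type C57BL/6J males at postnatal day 7, so age, strain and sex were shared by every group. Per the labels' protocols, about 200 neurons of each pool were taken from each of 3 animals on 12 µm sections stained with cresyl violet, and the RNA was amplified before labelling.

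Astrocytes are the glial cells that surround neuronal cell bodies and synapses. They take up glutamate through the transporters encoded by Slc1a2 and Slc1a3, move water through the channel encoded by Aqp4 and couple to each other through connexin 43, encoded by Gja1. Gfap and Vim encode intermediate filament proteins of these cells, and Gfap is known to be high in the fibrous astrocytes of white matter and low in many protoplasmic astrocytes of grey matter. A section cut around a motor neuron can include processes of such cells. In captured material, fewer astrocyte fragments and less RNA per astrocyte cannot be told apart.

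Values are deposited intensities on a linear scale, in array units. The highest value of any unspiked bacterial control probe set on any array was 18.3, and it is used as the noise level. Differences are on the log2(intensity + 16) scale, fitted with limma over all genes, and a gene is called where its adjusted p is under 0.05. Each array had 67.0% to 71.5% of its genes above noise. Over the 7123 genes of highest mean intensity, the median SD of log2 values was 0.204 in L5, 0.295 in DL and 0.171 in OMN. For Gapdh, the 3′ control probe set over the 5′ one gave 2.45 to 2.53 in L5, 2.44 to 3.75 in DL and 2.33 to 2.67 in OMN. Of 10 listed motor neuron genes 9 had a probe set of their own, and Slc5a7, the choline transporter, averaged 4074 ± 811 in L5, 3230 ± 323 in DL and 4107 ± 143 in OMN (SD, n = 3 each). Chat, which encodes the enzyme that makes acetylcholine, stood at 6.10 ± 6.01 in L5, 15.6 ± 6.76 in DL and 22.3 ± 2.02 in OMN. It passed the noise level on 4 of 9 arrays only. The Chat probe set therefore does not bear out the label, while that of Slc5a7 goes with it. Of the 9 genes, 6 were above noise on all 9 arrays.

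Gfap was the member that differed in all 3 comparisons, in the order DL, L5, OMN. Vim was higher in DL than in OMN and lower in L5 than in DL, and S100b was higher in L5 than in DL. The other 7 genes, which encode the glutamate transporters, the water channel, the connexin and the metabolic enzymes, were not called in any comparison. Aldoc and Aldh1l1 passed under some of the alternatives given below. The Gfap, Vim and S100b calls between L5 and DL, and the Vim call between DL and OMN, were lost under some alternatives. Of the 33 probe sets, 25 exceeded the noise level on all 9 arrays, 7 on some arrays and 1 on none, so astrocyte transcripts were measured in all 3 pools.

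Of the 10 genes, 1 was called between L5 and OMN, where 2.17% of all genes were called. Between L5 and DL it was 3 of 10, against 2.55%, and between DL and OMN 2 of 10, against 3.02%. Over probe sets it was 3 of 33 between L5 and OMN (1.03% of all probe sets called), 6 of 33 between L5 and DL (1.37%) and 6 of 33 between DL and OMN (1.92%), and these were probe sets of Gfap, Vim and S100b. In each comparison 5 of 10 members had pools that did not overlap, where 27.4%, 23.5% and 21.1% of all genes did so for L5 against OMN, L5 against DL and DL against OMN. The median log2 difference of the 10 members was 0.31 for L5 against OMN, 0.33 for L5 against DL and -0.08 for DL against OMN, with medians over all genes of 0.01, 0.06 and -0.04.

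Gfap encodes glial fibrillary acidic protein, the intermediate filament that is the classical astrocyte marker. Its brightest probe set, 1426508_at, read 392, 351 and 233 in L5, 1074, 2333 and 1243 in DL, and 12.2, 19.1 and 22.7 in OMN. The pools did not overlap, and DL array 2 was the highest of the 9. In OMN, 2 of 3 arrays lay just above the noise level and 1 below. L5 against OMN gave a log2 difference of 3.31 ± 0.31 (SE, limma adjusted p = 0.00356), at least 15.9-fold higher in L5 once values under the noise level were raised to it. DL against OMN gave 5.45 ± 0.31 (adjusted p = 0.000445), at least 73.2-fold higher in DL. Between the spinal pools Gfap fell in L5, with a log2 difference of -2.14 ± 0.31 (adjusted p = 0.0190), 4.59-fold lower than in DL.

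The other Gfap probe sets, 1426509_s_at and 1440142_s_at, gave the same order of pools. The first read 235, 375 and 178 in L5, 828, 1289 and 1088 in DL, and 0.800, 19.5 and 13.7 in OMN. The second read 254, 350 and 216 in L5, 463, 631 and 457 in DL, and 1.30, 16.5 and 0.900 in OMN. No pool overlapped another with any of the 3 probe sets. In the fit over all 45037 probe sets, the 3 Gfap probe sets were called higher in L5 than in OMN (adjusted p at most 0.00558), at least 15.9-fold with 1426508_at, 13.4-fold with 1426509_s_at and 14.6-fold with 1440142_s_at. They were also called higher in DL than in OMN (adjusted p at most 0.000634), at least 73.2-fold, 56.2-fold and 27.9-fold in the same order. These are lower bounds, since 2, 1 and 0 of the 3 OMN arrays were above the noise level. Between L5 and DL, 2 of 3 were called and 1440142_s_at was not, at -0.89 ± 0.20 (adjusted p = 0.0837). Gfap was 1.91-fold lower in L5 than in DL by that probe set, and 4.59-fold and 4.20-fold lower by the others.

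**Figure D1:**
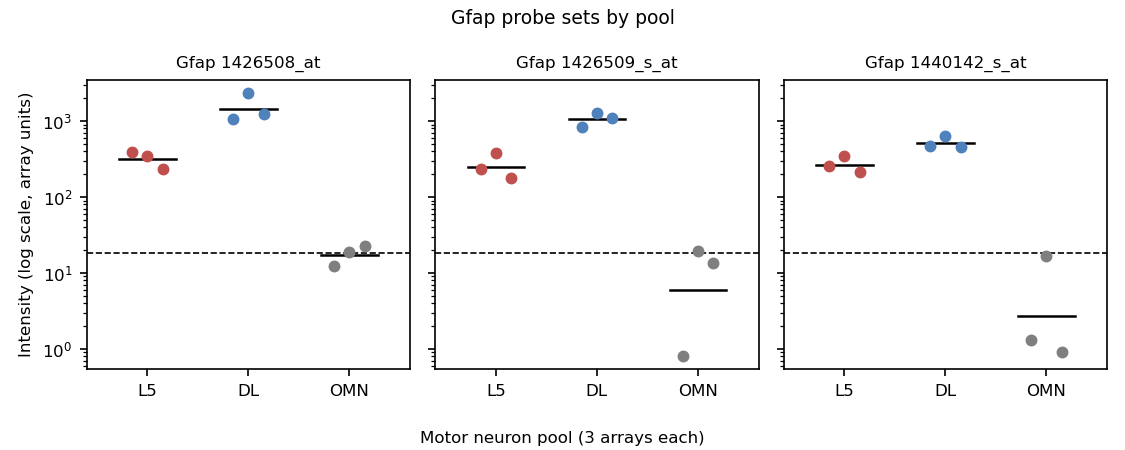
Intensity (log scale, array units) of the 3 Gfap probe sets on each array, by pool; points are arrays, short lines geometric means and the dashed line the noise level of 18.3. With each probe set the 3 DL arrays lie highest, the 3 L5 arrays between, and the 3 OMN arrays near or under the noise level.

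For Gfap, the call between L5 and DL was lost when L5 replicate 2 or 3, or any one DL array, was left out, at adjusted p of 0.0520 to 0.109. The log2 difference stayed between -2.46 and -1.86 with any one of the 9 arrays left out. With a pseudocount of 1 the adjusted p was 0.0875, with L5 and DL fitted alone 0.0928 and with the Gapdh ratio in the model 0.0668, and the sign was kept in each. The calls against OMN held in the 20 alternatives run for L5 and the 21 run for DL, at adjusted p of at most 0.0340 for L5 and 0.0181 for DL.

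Vim encodes vimentin, the filament partner of Gfap in immature astrocytes, which endothelial and mesenchymal cells also make. Its brightest probe set, 1438118_x_at, read 1411, 1794 and 2285 in L5, 5384, 4314 and 4663 in DL, and 1432, 1577 and 1646 in OMN. All 3 DL arrays lay above all others, and L5 overlapped OMN. Vim was higher in DL than in OMN by 1.61 ± 0.22 on the log2 scale (adjusted p = 0.0121) and lower in L5 than in DL by 2.66-fold, with a fitted value of -1.40 ± 0.22 (adjusted p = 0.0268). L5 against OMN gave 0.21 ± 0.22, with a 95% interval from -0.31 to 0.73 (adjusted p = 0.708). A name ending in _x_at marks probes that can match other transcripts too, but 1450641_at and 1456292_a_at, without that ending, were also highest in DL. The first averaged 338 ± 14.7 in L5, 1361 ± 459 in DL and 454 ± 20.2 in OMN, and the second 1315 ± 176 in L5, 3936 ± 494 in DL and 1215 ± 84.6 in OMN. With 1450641_at all L5 arrays lay below all OMN arrays, at -0.41 ± 0.25 (adjusted p = 0.530), so the sign of L5 against OMN differed between Vim probe sets, and none was called there. In the fit over all probe sets, the 3 Vim probe sets were called lower in L5 than in DL, between -1.91 and -1.40, and higher in DL than in OMN, between 1.50 and 1.68. Leaving out any one of the 9 arrays ended the L5 against DL call, at adjusted p of 0.0545 to 0.121, and leaving out any one OMN array ended the DL against OMN call, at 0.0667 to 0.0757. The log2 differences moved little, to between -1.56 and -1.20 for L5 against DL and between 1.58 and 1.66 for DL against OMN without an OMN array.

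S100b encodes a calcium-binding protein of astrocytes that cells of the oligodendrocyte lineage also make. With its brighter probe set, 1419383_at, it read 2756, 2845 and 3427 in L5, 1179, 1620 and 1296 in DL, and 1641, 1693 and 1618 in OMN. All L5 arrays lay above all others, and DL array 2 lay within the range of OMN. S100b was 2.21-fold higher in L5 than in DL (log2 difference 1.14 ± 0.20, adjusted p = 0.0347). L5 against OMN gave 0.85 ± 0.20 with an adjusted p of 0.0903, which misses the threshold, and without the replicate block it was 0.0404. DL against OMN gave -0.28 ± 0.20 (adjusted p = 0.564). The other probe set, 1434342_at, had means of 2625 ± 164 in L5, 1648 ± 186 in DL and 1726 ± 72.5 in OMN and was not called. Leaving out any one of the 9 arrays ended the S100b call between L5 and DL, at adjusted p of 0.0566 to 0.135, while the log2 difference stayed between 1.02 and 1.28.

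**Figure D2:**
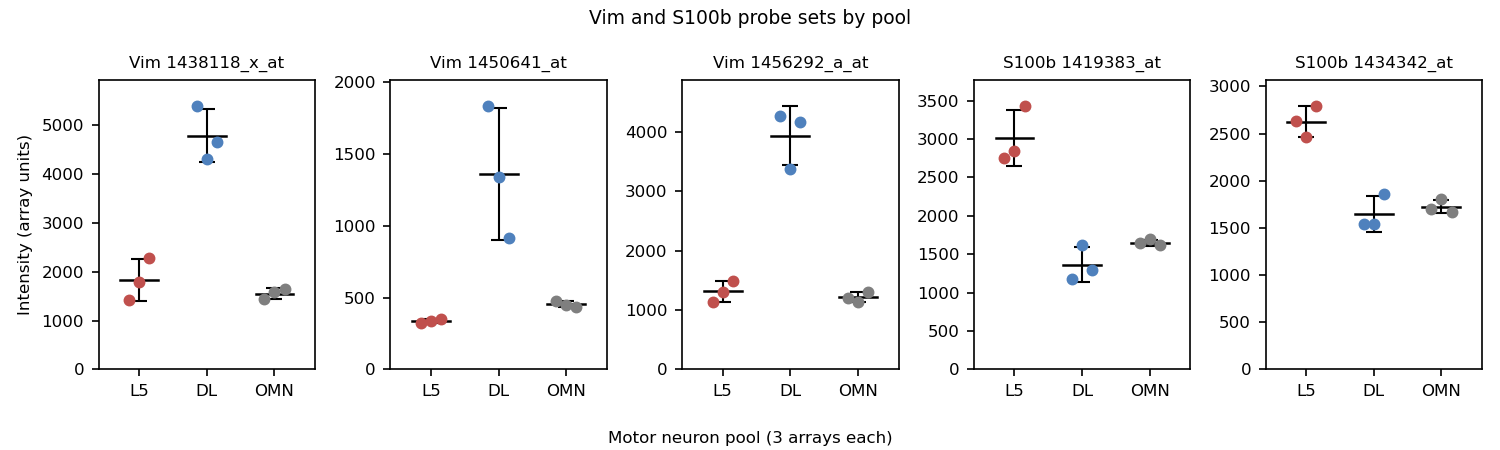
Intensity (linear scale, array units) of the 3 Vim and 2 S100b probe sets on each array, by pool; points are arrays, bars the mean ± SD of 3. The DL arrays are the highest with each Vim probe set, and the L5 arrays are the highest with both S100b probe sets.

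The promoters of these 3 genes are shown because their levels changed between pools in different ways. The windows are from RefSeq, build GRCm38.p6, and run from 250 bases before the annotated start to 50 after it, 5′ to 3′ on the gene's strand. Gfap lies at chr11:102897151-102897450 on the minus strand, Vim at chr2:13574061-13574360 on the plus strand and S100b at chr10:76253586-76253885 on the plus strand. Capitals mark matches, on either strand, to a TATA box (TATAAA), a STAT element (TTCNNNGAA) or a short motif of nuclear factor I (TTGGC, read GCCAA on the other strand), and no matches overlap.
Gfap: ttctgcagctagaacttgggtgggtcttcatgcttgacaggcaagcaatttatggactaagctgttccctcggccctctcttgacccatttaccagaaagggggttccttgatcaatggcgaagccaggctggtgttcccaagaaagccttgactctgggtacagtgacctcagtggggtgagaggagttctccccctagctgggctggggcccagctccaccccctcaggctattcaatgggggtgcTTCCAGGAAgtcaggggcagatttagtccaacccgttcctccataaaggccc
Vim: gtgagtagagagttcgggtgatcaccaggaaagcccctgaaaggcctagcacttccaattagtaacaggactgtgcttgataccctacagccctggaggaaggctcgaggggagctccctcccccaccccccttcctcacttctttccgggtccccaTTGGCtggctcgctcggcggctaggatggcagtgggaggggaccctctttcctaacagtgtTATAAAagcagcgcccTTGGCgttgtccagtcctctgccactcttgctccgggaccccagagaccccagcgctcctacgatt
S100b: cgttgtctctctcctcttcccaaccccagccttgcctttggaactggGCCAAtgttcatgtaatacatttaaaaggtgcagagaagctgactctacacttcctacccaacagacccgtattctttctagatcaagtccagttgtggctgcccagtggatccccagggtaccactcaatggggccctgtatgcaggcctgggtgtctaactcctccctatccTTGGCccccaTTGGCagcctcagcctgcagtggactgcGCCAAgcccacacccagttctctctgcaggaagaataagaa

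The Gfap window holds 1 STAT element, TTCCAGGAA, and neither of the other motifs. The Vim window holds 1 TATA box and 2 nuclear factor I motifs, and the S100b window 4 nuclear factor I motifs. A GC box (GGGCGG) and an AP-1 element (TGANTCA) were also searched and are in none of the 3. Of all 32851 promoter windows in the table, 8.3% hold the STAT element, 13.6% the TATA box, 46.7% the nuclear factor I motif, 35.7% the GC box and 7.81% the AP-1 element. Of the 9 members with a window, 4 hold a STAT element, namely Gfap, Slc1a3, Acsbg1 and Aldoc, of which Gfap alone was called. A match describes the letters in the window and no more.

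Slc1a2 encodes GLT-1, the main glutamate transporter of mature astrocytes, and Slc1a3 encodes GLAST, the transporter of younger ones. Slc1a2, with 1438194_at, read 3258, 3090 and 2644 in L5, 1991, 2153 and 2419 in DL, and 2255, 2145 and 2103 in OMN. The L5 arrays lay above the rest, but limma made no call, at 0.46 ± 0.19 against OMN (adjusted p = 0.306) and 0.45 ± 0.19 against DL (adjusted p = 0.265). The 4 Slc1a2 probe sets above noise on all arrays had L5 means higher than both other pools, the widest with 1459014_at at 3095 ± 289 in L5, 1659 ± 296 in DL and 1884 ± 119 in OMN. None of them was called. Slc1a3, with 1452031_at, read 1426, 1295 and 1490 in L5, 1153, 1067 and 1436 in DL, and 1580, 1157 and 1466 in OMN, and all 3 pools overlapped. The 95% interval of its L5 against OMN difference ran from -0.42 to 0.45, and that of DL against OMN from -0.63 to 0.24. Its other 5 probe sets made no call, and 3 of them reached noise on some arrays only.

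Aqp4 encodes aquaporin 4, the water channel of astrocyte endfeet. With 1434449_at it read 4267, 4089 and 4882 in L5, 4577, 4728 and 3709 in DL, and 3112, 3464 and 3406 in OMN. With this probe set both spinal pools lay above OMN on every array, and they overlapped each other. The differences from OMN, 0.40 ± 0.20 for L5 and 0.37 ± 0.20 for DL, were not called (adjusted p = 0.377 and 0.431). The other Aqp4 probe sets did not show the same separation and were not called. With 1425382_a_at the means were 1019 ± 31.1 in L5, 902 ± 342 in DL and 904 ± 103 in OMN, and both spinal pools overlapped OMN. With 1447745_at they were 886 ± 92.4 in L5, 975 ± 79.1 in DL and 755 ± 123 in OMN, and L5 overlapped OMN while DL did not. Gja1 has 6 probe sets, and its brightest, 1437992_x_at, read 2861, 2963 and 3138 in L5, 3142, 3413 and 3014 in DL, and 3112, 3238 and 3408 in OMN. Its L5 against OMN difference had a 95% interval from -0.53 to 0.29, and its L5 against DL difference one from -0.51 to 0.32. All 6 Gja1 probe sets had a negative L5 against OMN difference, between -0.59 and -0.10, and none was called. Between L5 and DL 5 of 6 were negative, down to -0.79 with 1438973_x_at (adjusted p = 0.153), and none was called. With 1415800_at, 1438650_x_at, 1438945_x_at and 1438973_x_at every L5 array lay below every DL and every OMN array, so the brightest probe set does not show the separation that these do.

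Among the metabolic members, Aldh1l1 and Acsbg1 had their lowest means in DL. Aldh1l1 encodes a folate enzyme that marks astrocytes broadly. It read 292, 422 and 442 in L5, 257, 230 and 334 in DL, and 401, 449 and 749 in OMN with 1424400_a_at. All 3 DL arrays lay below all OMN arrays, and L5 overlapped both pools. DL against OMN gave -0.88 ± 0.22 (adjusted p = 0.0875), the reverse of the order seen for Gfap and not called, though with a pseudocount of 64 it was (adjusted p = 0.0498). The second Aldh1l1 probe set, 1424401_at, was under the noise level on all 9 arrays. Acsbg1, which encodes a synthetase that activates long-chain fatty acids, read 452, 442 and 556 in L5, 200, 175 and 457 in DL, and 599, 442 and 450 in OMN. DL array 3 stood with the other pools, and the difference of 0.89 ± 0.31 between L5 and DL was not called (adjusted p = 0.182). Aldoc encodes aldolase C, a glycolytic enzyme of astrocytes and of some neurons. It read 7011, 7518 and 7835 in L5, 4802, 5364 and 5087 in DL, and 5546, 5638 and 5437 in OMN with 1451461_a_at. The 3 pools did not overlap, yet 0.55 ± 0.17 between L5 and DL (adjusted p = 0.151) and 0.43 ± 0.17 between L5 and OMN (adjusted p = 0.290) missed the threshold. With trend and robust variances Aldoc was called in both, at adjusted p of 0.00371 for L5 against DL and 0.0185 for L5 against OMN, and with a pseudocount of 64 it was called for L5 against DL (adjusted p = 0.0304). The second Aldoc probe set, 1424714_at, disagreed on the order, at 724 ± 78.9 in L5, 839 ± 73.7 in DL and 619 ± 121 in OMN, and was not called.

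**Figure D3:**
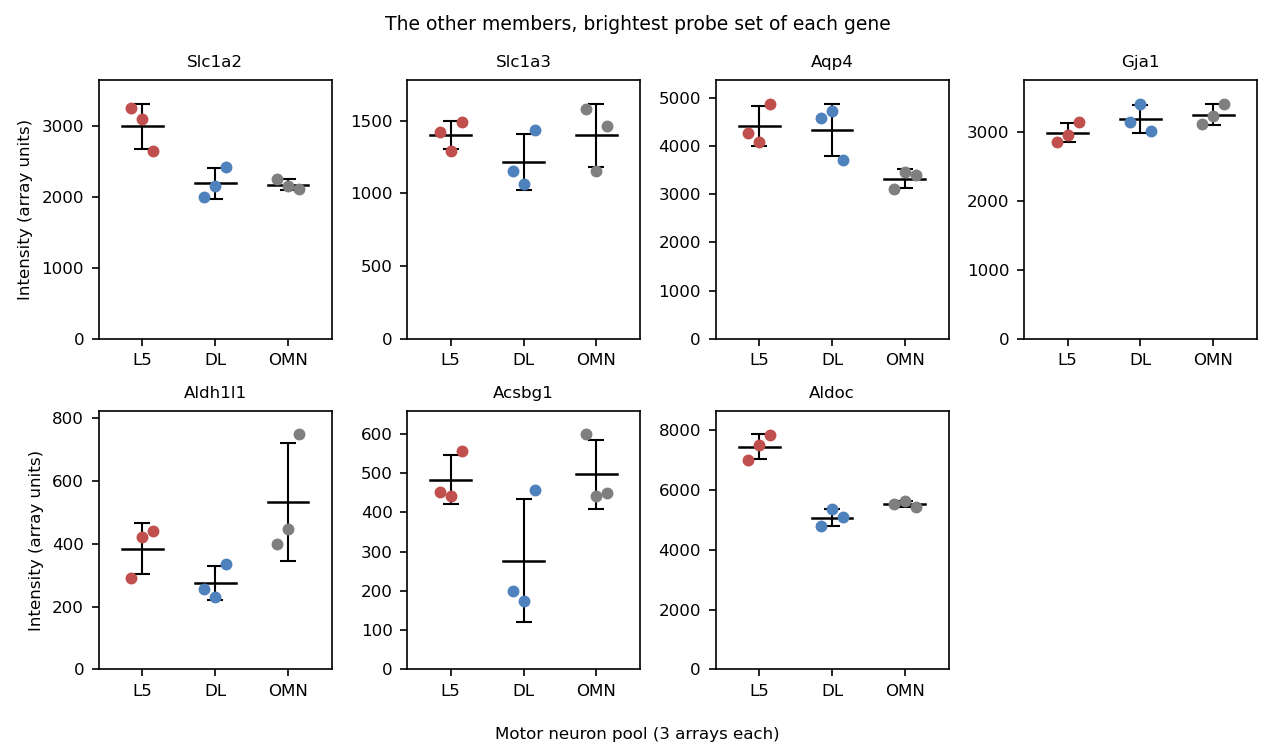
Intensity (linear scale, array units) of the brightest probe set of the 7 members that made no call, by pool; points are arrays, bars the mean ± SD of 3. L5 lies highest for Slc1a2 and Aldoc, the Gja1 pools overlap by this probe set, and DL array 3 stands apart from the other DL arrays for Acsbg1.

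On each array the log2 value of Gfap was set against the median of the other 9 members. The gap was -3.42 to -2.76 in L5, -0.95 to 0.12 in DL and -5.88 to -5.42 in OMN, where only the change of this gap between arrays can be read. The Gfap shift between pools was thus larger than that of the median member. The comparisons share pools, so their values are not independent.

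**Figure D4:**
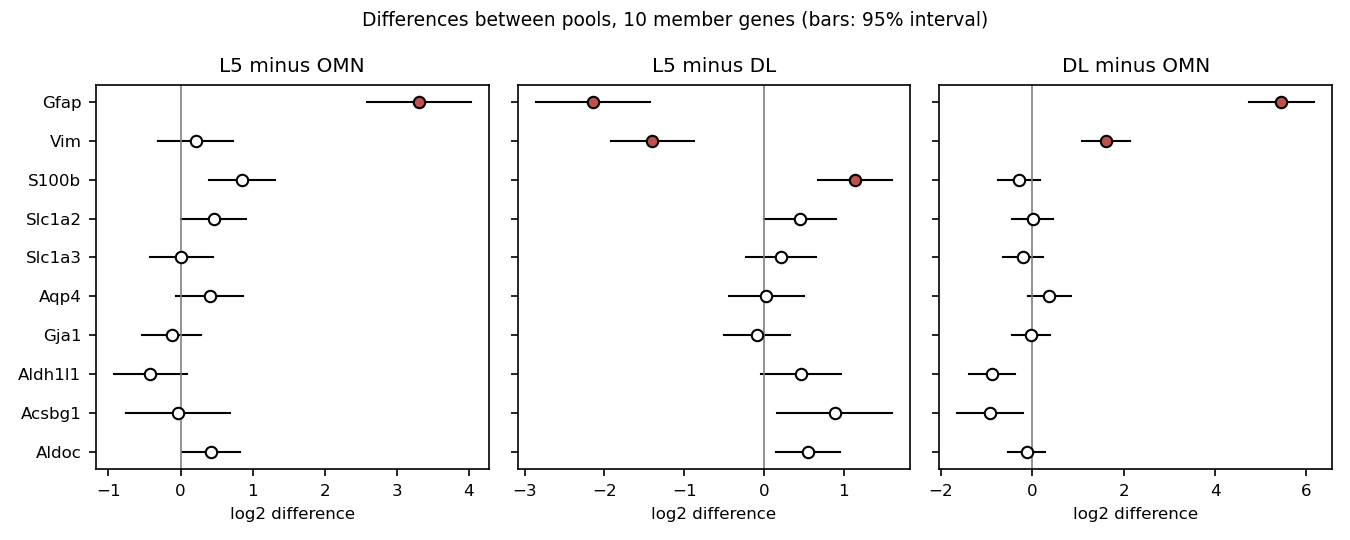
Log2 differences between pools for the 10 member genes, one panel a comparison; circles are estimates, filled where the adjusted p is under 0.05, and bars 95% intervals. Gfap stands away from 0 in all 3 panels, Vim in both panels with DL, and most other members within 1 log2 unit of 0.

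Other genes of astrocytes showed few calls, in both directions, while most of their differences put DL below L5 and below OMN. Of 28 listed, 27 had a probe set of their own. Between L5 and OMN 1 was called higher and 2 lower, between L5 and DL 1 higher and 0 lower, and between DL and OMN 1 higher and 1 lower. Differences were positive for 11 of the 27 between L5 and OMN, 21 between L5 and DL and 7 between DL and OMN. The other 16, 6 and 20 were negative. Their medians were -0.06, 0.23 and -0.35, with 9, 9 and 11 genes at a limma unadjusted p under 0.05. For this list and those below, the share of all genes called was 2.17%, 2.55% and 3.02% in the same order of comparisons. Ptprz1, a receptor phosphatase of glial precursors and astrocytes, read 737, 573 and 499 in L5, 701, 679 and 677 in DL, and 2111, 2017 and 1837 in OMN. OMN did not overlap the spinal pools (adjusted p = 0.00698 for L5 and 0.00827 for DL). Hes5, a Notch target of glial progenitors, averaged 35.3 ± 11.7 in L5 and 226 ± 52.8 in OMN (adjusted p = 0.00831). Htra1, a secreted protease, was 2.26-fold higher in L5 than in OMN (adjusted p = 0.0279). Slc7a10, an amino acid transporter of astrocytes, was 2.75-fold higher in L5 than in DL (adjusted p = 0.0438), and Ntsr2, a neurotensin receptor of astrocytes, 2.40-fold higher in DL than in OMN (adjusted p = 0.0358).

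Genes next to the members in function were called in a few cases, to be read beside the shares of all genes given above. Of 10 other intermediate filament genes, 1 was higher in L5 than in OMN, 1 was higher in L5 than in DL and 1 was lower in DL than in OMN. The first was Prph, the peripherin of neurons, at 10257 ± 132 in L5 and 4844 ± 301 in OMN (adjusted p = 0.0352). The others were both Ina, the neuronal alpha-internexin, at 4169 ± 282 in L5, 2080 ± 39.7 in DL and 4312 ± 406 in OMN (adjusted p = 0.0402 for L5 against DL and 0.0303 for DL against OMN). Nes, the nestin of progenitors, averaged 74.0 ± 15.2 in L5, 76.5 ± 12.1 in DL and 66.2 ± 17.2 in OMN with no call. Among 11 paralogs of members, S100a6, a calcium-binding protein of the S100 family, read 148, 170 and 311 in L5, 762, 1007 and 991 in DL, and 201, 175 and 157 in OMN. Its DL arrays stood clear of the others (log2 difference 2.27 ± 0.28 for DL against OMN, adjusted p = 0.00804), and L5 overlapped OMN. Vim was likewise highest in DL. Of 10 genes of glutamate uptake and recycling and 8 of connexins and the Aqp4 complex, 0 were called in any comparison by limma, with between 2 and 4 of each list at an unadjusted p under 0.05. DL against OMN was negative for 8 and 7 of them, L5 against DL positive for 8 and 5, and L5 against OMN positive for 3 and 4. The glutamate sum was 24110 to 25950 in L5, 20272 to 21772 in DL and 24315 to 25072 in OMN, with all DL arrays lowest. The other sum was 6320 to 7891 in L5, 6078 to 6418 in DL and 7896 to 8037 in OMN, where L5 overlapped DL.

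Among 16 regulators linked to Gfap, Nfib, a nuclear factor I gene that promotes gliogenesis, read 2247, 2092 and 2580 in L5, 365, 530 and 636 in DL, and 1500, 1660 and 1577 in OMN. It was 4.62-fold higher in L5 than in DL (adjusted p = 0.00595) and 3.17-fold lower in DL than in OMN (adjusted p = 0.0101), with its lowest level in the pool where Gfap was highest. Lifr, the receptor for leukaemia inhibitory factor, was 2.30-fold higher in DL than in OMN (adjusted p = 0.0262). Stat3, which this receptor activates, averaged 386 ± 82.7 in L5, 778 ± 351 in DL and 235 ± 67.7 in OMN without a call (adjusted p = 0.0560 for DL against OMN). Of the 16 regulators, 0 were called between L5 and OMN, 1 higher between L5 and DL, and 1 higher and 1 lower between DL and OMN. Their differences were positive for 7, 6 and 8 in the same order and negative for the other 9, 10 and 8. Of 15 genes of reactive astrocytes with a probe set, 12 were above noise on some array and 3 on all 9. Of the 15, 0 were called between L5 and OMN or DL and OMN by limma, with 4 and 3 at an unadjusted p under 0.05. Between L5 and DL 1 was called, as S1pr3, a sphingosine phosphate receptor, was 4.49-fold lower in L5 than in DL (adjusted p = 0.0380), with 2 of 3 L5 arrays above noise. Differences were positive for 11 of the 15 between L5 and OMN, 9 between L5 and DL and 11 between DL and OMN. The other 4, 6 and 4 were negative. Their summed intensity was 652 to 917 in L5, 826 to 867 in DL and 389 to 560 in OMN. By this sum both spinal pools lay above OMN on every array and overlapped each other. Lcn2 and Timp1, induced in reactive astrocytes, stayed under the noise level on all 9 arrays.

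Markers of other cells moved with some of these results. All 11 measured oligodendrocyte genes had positive DL against OMN and negative L5 against DL differences, and 4 of them, Mal, Ugt8a, Cldn11 and Ermn, were called lower in L5 than in DL and higher in DL than in OMN. Their summed intensity was 16321 to 17519 in L5, 24280 to 26529 in DL and 12880 to 14676 in OMN. The 3 pools did not overlap, and the order of the sums, DL, L5, OMN, was that of Gfap. Mbp made up a large part of each sum, averaging 7611 in L5, 8757 in DL and 5877 in OMN. Between L5 and OMN, however, 0 of the 11 genes were called by limma and 0 had an unadjusted p under 0.05. Of the 11, 10 were above noise on all arrays and Opalin on 2 of 9. The sum of the 27 other astrocyte genes was 40735 to 46179 in L5, 33045 to 37341 in DL and 41959 to 43358 in OMN, lowest in DL. Of 12 endothelial and mural genes 0 were called by limma in any comparison, with 2, 3 and 0 at an unadjusted p under 0.05 for L5 against OMN, L5 against DL and DL against OMN. Their sum was 4441 to 5159 in L5, 5613 to 6486 in DL and 5324 to 5822 in OMN, with all DL arrays above all L5 arrays. Of 11 microglia genes 0 were called by limma, with 1, 4 and 4 at an unadjusted p under 0.05, and their sum was 1348 to 1465 in L5, 843 to 1318 in DL and 1195 to 1651 in OMN. All 11 had negative DL against OMN differences, and 10 of 11 had positive L5 against DL differences. Of 5 precursor and 5 ependymal genes 0 were called by limma, with 1, 1 and 2 precursor and 1, 0 and 0 ependymal genes at an unadjusted p under 0.05. Of 4 Schwann cell genes 1 was called in each comparison, Pmp22, a myelin protein gene also found in motor neurons, at 2060 ± 176 in L5, 875 ± 183 in DL and 135 ± 37.1 in OMN. Of 9 motor neuron genes 3 were called between L5 and OMN (Mnx1 and Prph higher, Isl1 lower), 1 between L5 and DL (Isl1 lower) and 2 between DL and OMN (Mnx1 and Isl2 higher). Of 5 genes of inhibitory interneurons 3 were called between L5 and OMN (Slc6a5 higher, Gad1 and Gad2 lower), 2 between L5 and DL (Gad1 and Gad2 lower) and 2 between DL and OMN (Slc6a5 and Slc32a1 higher). All 5 had negative L5 against DL and positive DL against OMN differences, and their sum was 1647 to 2288 in L5, 5075 to 5968 in DL and 1913 to 2733 in OMN, with all DL arrays above all others. The Gapdh ratio was highest on DL arrays 3 and 1. With this ratio in the limma model, Gfap, Vim and S100b were not called between L5 and DL (adjusted p = 0.0668, 0.117 and 0.157). Vim was then not called between DL and OMN either, while Gfap kept its calls against OMN. The part of oligodendrocytes, vascular cells, microglia, interneurons and RNA quality in the Gfap and Vim differences was not tested.

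**Figure D5:**
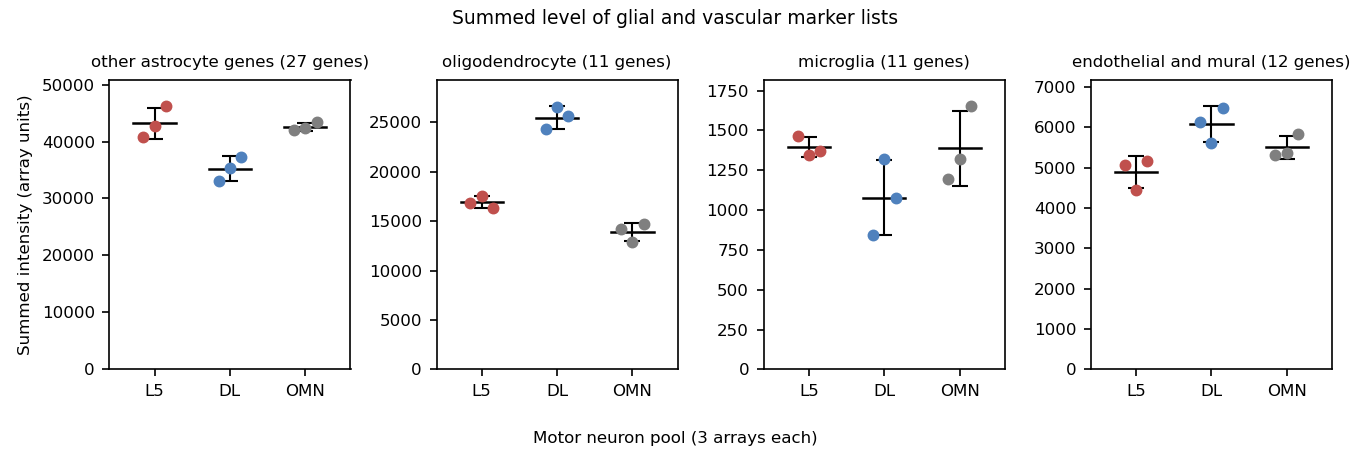
Summed intensity (linear scale, array units) of 4 marker lists on each array, by pool; points are arrays, bars the mean ± SD of 3. The oligodendrocyte sum is highest in DL and lowest in OMN, while the sum of other astrocyte genes is lowest in DL.

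The genes whose pattern over the 9 arrays was most like that of Gfap were sought among 12793 genes above noise on at least 3 arrays, by Pearson correlation of log2 values. The 5 closest were Hoxa3 (r = 0.985), Mbp (0.979), Pcdh17 (0.971), Pitrm1 (0.970) and Hoxd11 (0.968). Hoxa3 and Hoxd11 are homeobox genes of body position, Mbp encodes a main protein of myelin, Pcdh17 a protocadherin and Pitrm1 a mitochondrial protease. Hoxa3 read 128, 149 and 204 in L5, 474, 687 and 561 in DL, and 2.80, 3.70 and 2.80 in OMN. Mbp averaged 7611 ± 138 in L5, 8757 ± 339 in DL and 5877 ± 409 in OMN, a narrower range than Gfap, and was not called. The 9 arrays fall into 3 pools, so the points of a pool are not independent and no p is given. No member was among the 5. The closest member to Gfap was Vim at 0.803, and Aldh1l1 ran the other way at -0.778.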

How the data were processed

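The measurement was 9 arrays of 3 pools. The authors deposited a table of 45101 probe sets by 9 arrays, and its intensity values are linear. After trimming 2% of values at each end, every array averages 250.0, as tested on the file. The labels name no software for this scaling. The labels' protocols state at least 1.5 ng of RNA per sample before amplification. Control probe sets (64) were left out. Of the others, 34945 named 1 gene, 932 several and 9160 none. Of the probe sets naming 1 gene, 34741 had a gene ID found in the RefSeq table of GRCm38.p6, with 0 symbols changed. A gene took the probe set whose mean over 9 arrays was highest.

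All arrays entered limma 3.58.1 in R 4.3.3 on log2(intensity + 16), with pool as factor and replicate number as a block, because the protocols take every pool from each animal. No label ties a number to an animal. The p-values measure the spread left between these samples once pool and replicate number are fitted, which is not shown to be a spread between animals. Benjamini-Hochberg adjustment ran over 18193 genes, and separately over 45037 probe sets. Folds are ratios of geometric means after values under the noise level were raised to it, a level chosen with the values known. The number of arrays limits the precision, and scaled arrays carry no information on total RNA. Scripts were tested on simulated data with differences planted between L5 and OMN. The fit recovered 13.4% of those of 1 log2 unit, 67.2% of those of 2 and 83.3% of those of 3. A missing call therefore does not show equal levels. The members and 15 further gene lists (163 of 176 symbols matched, members included) were chosen with earlier results of these data known. Named genes were all members, up to 4 called genes a list and comparison with the smallest p, and the 5 genes most like Gfap, provisional names passed over. Nes, Stat3, Lcn2, Timp1, Opalin, Slc5a7 and Chat were named after their values were seen. Alternatives changed the pseudocount, normalization, filter, variance model, weights, block, covariate, arrays and summary of probe sets.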

Additional observations from a re-analysis of the deposited data

How the results depend on the processing

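Gfap kept its call against OMN in all 20 alternatives for L5 (2.23 to 4.11) and all 21 for DL (4.22 to 6.31). Between L5 and DL its value was -2.20 with a pseudocount of 1, -2.14 with the 2 pools alone, -2.44 with the Gapdh ratio in the model and -2.72 with 1 DL array, a setting chosen after seeing the data that drops 2 of the 3 DL arrays and assumes the lone one to vary like the other pools. None of these 4 passed, and leaving out 1 array gave -2.46 to -1.86, with the call lost in 5 of 9 cases.

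Members called between L5 and OMN numbered 2 with a pseudocount of 64, 3 with trend and robust variances, 2 with array weights and 2 without the replicate block, against 1. Member probe sets called there numbered 1 with a pseudocount of 1, 5 with 64 and 7 with trend and robust variances, against 3, and 2 to 3 with 1 array left out. Between L5 and DL, a pseudocount of 1, the 2 pools alone, the Gapdh covariate and 1 DL array each left 0 members and 0 probe sets called, against 3 and 6. A pseudocount of 64 gave 10 probe sets, and leaving out 1 array gave 0 to 1 members and 0 to 3 probe sets. Between DL and OMN, those 4 settings each left 1 member and 3 probe sets, against 2 and 6, and leaving out 1 array gave 1 to 2 members and 3 to 6 probe sets. Vim and S100b between L5 and DL each lost the call in 13 of 21 alternatives, and Vim between DL and OMN in 7 of 21. The cause was not tested, beyond the fewer arrays in some settings.

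Signs turned only for members that were not called in the comparison concerned. L5 against OMN turned for Slc1a3 (-0.020 after quantile normalization, -0.10 with the mean of probe sets, -0.045 to 0.12 with 1 array left out), Acsbg1 (0.034 with centred arrays, 0.029 with array weights, -0.35 to 0.21 with 1 array left out) and Vim (-0.030 with the mean of probe sets). L5 against DL turned for Aqp4 (-0.085 quantile, -0.054 centred, -0.0024 weights, -0.11 Gapdh covariate, -0.13 with 1 DL array, -0.13 to 0.13 with 1 array left out). DL against OMN turned for Slc1a2 (-0.079 quantile, -0.0061 weights, -0.067 Gapdh covariate, -0.32 mean of probe sets, -0.027 with 1 DL array, -0.12 to 0.12 with 1 array left out). It also turned for Gja1 (0.12 centred, 0.062 Gapdh covariate, 0.0014 mean of probe sets, 0.078 with 1 DL array, -0.083 to 0.046 with 1 array left out) and Aldoc (0.025 centred, 0.16 mean of probe sets). Over the 27 results of members other than Gfap, 483 of 558 values kept direction and side of the threshold.

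Arrays of the same number did not deviate together over the 7123 genes of highest mean intensity. Their correlations were -0.0713 to 0.0586 over 9 pairs with 0 above 0.1, so the numbers are not shown to pair the arrays. Without the replicate block every Gfap call was kept, and S100b was also called between L5 and OMN (0.85, limma adjusted p = 0.0404).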
